A study of Mus musculus with 15 samples.

Results

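Inhib_8 is 1 of 12 inhibitory clusters that the authors defined in the mouse prefrontal cortex (PFC) by single-cell RNA sequencing, and its given markers are Id3 and Tnnt1. Its members were taken from the deposited table of cells as the cells named Inhib_8, with no threshold on any value. There were 74 such cells, 48 at P60 and 26 at P21, of 2153 cells in inhibitory clusters and 35360 retained cells in all. The P60 cells came from adult male C57BL/6N mice, 8 to 10 weeks old in the labels, that self-administered saline or cocaine intravenously and were collected at maintenance, after 48 h of withdrawal or after 15 d of withdrawal, with 2 libraries for each of these 6 groups. The P21 cells came from 3 libraries of male C57BL/6N mice, 3 weeks old, for which the labels give no treatment and no self-administration. Each library pools the tissue of 2 mice, and since the methods give 4 mice at P21, P21 libraries may share animals. The P60 clusters were built on P60 cells of saline and cocaine mice together, and P21 cells were named from their correlation with P60 clusters, so the genes of a cluster against the other clusters are given here as a description without a test. The tissue label reads NAc, while the titles, the source and the methods name the PFC.

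Cortical inhibitory neurons release GABA and arise mainly from 2 embryonic sources, the medial ganglionic eminence (MGE), whose cells keep the transcription factor Lhx6 and include the Pvalb and Sst classes, and the caudal ganglionic eminence (CGE), whose cells often carry Adarb2, Prox1 and Htr3a and include the Vip class. Neurogliaform cells, which release GABA in a diffuse manner over a dense local axon, are usually recognised by Lamp5, Npy, Id2, Reln and Gabrd. Some neurogliaform and related Lamp5 cells also carry Lhx6. Id3 encodes an inhibitor of basic helix-loop-helix (bHLH) transcription factors that is induced by bone morphogenetic protein signalling and is abundant in endothelial cells. Tnnt1 encodes the slow skeletal form of troponin T.

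Inhib_8 cells were few in every library. At P60 there were 0 of 34, 0 of 19 and 0 of 28 inhibitory neurons in P60-1 (cocaine), P60-2 (saline) and P60-3 (saline), and 2 of 48 in P60-4 (cocaine), the 4 libraries of maintenance. At 48 h there were 1 of 59 in P60-5 (saline), 1 of 31 in P60-6 (cocaine), 4 of 109 in P60-7 (saline) and 4 of 152 in P60-8 (cocaine). At 15 d there were 12 of 218 in P60-9 (cocaine), 4 of 145 in P60-10 (cocaine), 11 of 204 in P60-11 (saline) and 9 of 144 in P60-12 (saline). The libraries of 15 d thus held 36 of the 48 P60 cells, and the libraries of maintenance held 2. A count of 0 allows a share of up to 8.82% in P60-1, 15.8% in P60-2 and 10.7% in P60-3 by 3 counts of the total, and the exact 95% binomial intervals reach 10.3%, 17.6% and 12.3%, so shares like those of the other libraries are not excluded there. The 3 P21 libraries held 18 of 290, 4 of 301 and 4 of 371, and P21-1 alone held 78.7% of the P21 UMIs of the cluster.

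The mean over libraries of the share of Inhib_8 among inhibitory neurons was 2.87% ± 2.89 (SD, n = 3) at P21 and 2.83% ± 2.69 (SD, n = 6) in P60 saline mice. The difference of 0.0369 percentage points was smaller than the spread between libraries (exact permutation test over 84 splits, two-sided, p = 1). Without P21-1 the difference was -1.63 percentage points (exact permutation test, p = 0.5). In these means a library with few inhibitory neurons weighs as much as one with many. With cells pooled over libraries the share was 2.70% (26 of 962) at P21 and 4.44% (25 of 563) in P60 saline, given without a test. The mean share was 3.05% ± 1.84 (SD, n = 6) in cocaine mice, 0.213 percentage points above saline (exact permutation test within time points, two-sided, p = 0.806). With cells pooled the order was the opposite, with 3.66% (23 of 628) in cocaine against 4.44% in saline. By time point the mean share was 1.04% ± 2.08 at maintenance, 2.81% ± 0.854 at 48 h and 4.98% ± 1.53 at 15 d (SD, n = 4 each), values given without a test because no comparison between time points was planned.

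**Figure D1:**
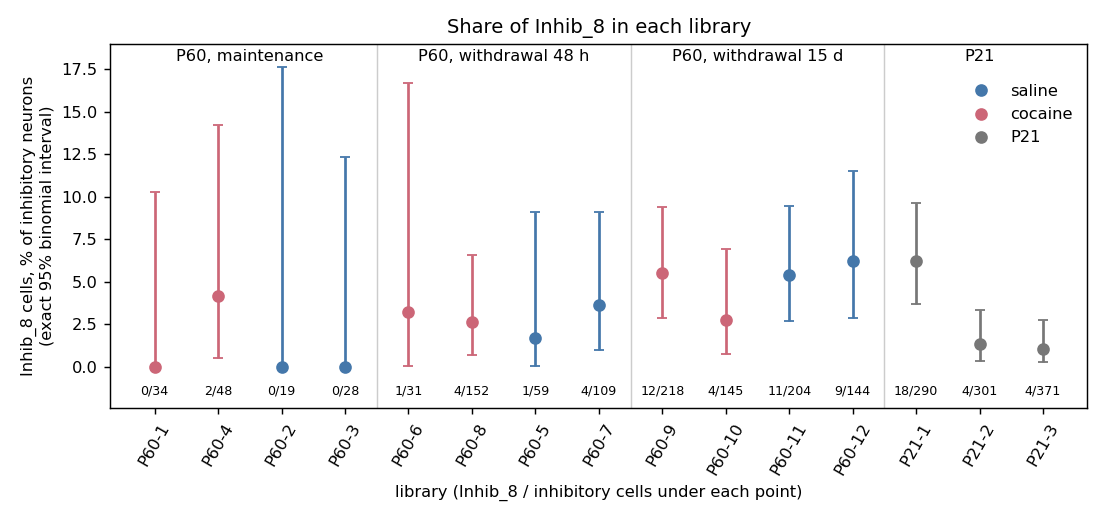
Percent of inhibitory neurons that were Inhib_8 cells (vertical axis) in each of the 15 libraries (horizontal axis), with exact 95% binomial intervals, which cover counting error only. Points are coloured by saline, cocaine or P21 and the counts are printed under them. The shares run from 0 to 6.25% at P60 and from 1.08% to 6.21% at P21, with saline and cocaine points intermixed.

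The retained cells of a library held 8375172 to 42892922 UMIs. Inhib_8 cells had a median of 9719 UMIs and 3505.5 genes at P60 and 7296.5 UMIs at P21, against 9269 UMIs for Inhib_7 and 4668 to 15424.5 over the other 11 clusters at P60. All P60 Inhib_8 cells together held 456092 UMIs in the genes used, so that 1 UMI is 2.19 CPM, the count of a gene scaled to a fixed total of UMIs. Pairs of libraries shared at most 27 barcodes of retained cells, and no barcode was shared between Inhib_8 cells. The authors' broad class was Inhibitory for 71 of the 74 cells. The other 3, all at P21, were classed as an astrocyte and an oligodendrocyte in P21-1 and an endothelial cell in P21-2. Levels below are CPM of summed UMIs, with the exact 95% Poisson interval, and compare clusters at P60 unless stated. CPM are not per length, so levels are compared for 1 gene between clusters.

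The cells carried the genes that define an inhibitory neuron. Gad1 and Gad2, which make GABA, had UMIs in 48 of 48 P60 cells and 26 of 26 P21 cells, at 1809 CPM (1688 to 1937) and 1791 CPM (1671 to 1918) at P60. Dlx1, Dlx2 and Dlx5, transcription factors of inhibitory neuron development, were below the mean of the other clusters, with Dlx2 and Dlx5 at their lowest of the 12 clusters. The profile over 7028 genes correlated most with that of Inhib_7 (Pearson r = 0.92 on log2 CPM) and Inhib_3 (r = 0.917) and least with Inhib_12 (r = 0.786), a description across genes, which are not independent, in which pool size and depth differ between clusters.

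Genes of neurogliaform cells were high in Inhib_8, as in Inhib_7. Npy, a neuropeptide, was at 15968 CPM against 29563 CPM in Inhib_7 and a mean of 5655 CPM in the other clusters. It was higher also in Inhib_1, the cluster with the most Sst, at 21260 CPM. Lamp5 (listed as 6330527O06Rik), a membrane protein of the endosomal system, was at 708 CPM (633 to 790) with UMIs in 46 of 48 cells, against 878 CPM in Inhib_7. Id2, a bHLH inhibitor like Id3, was at 1715 CPM (1596 to 1839), the highest of the 12 clusters, with Inhib_7 next at 1289 CPM. Of the 9 genes of the neurogliaform list, counted without a floor, 8 were above the mean of the other clusters. Over all genes 4879 of 8616 (56.6%) were so, counting genes whose level and mean together exceed 20 CPM. Reln, at 92.1 CPM against a mean of 140 CPM, was the exception. Cplx3, a complexin, and Kit, a receptor tyrosine kinase, were at 289 CPM and 261 CPM, below Inhib_7 at 598 CPM and 360 CPM.

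The genes that name the Pvalb, Vip and Sst classes were absent or close to absent. Pvalb, Vip, Htr3a, Crhbp, Npas1, Crh and Penk had 0 UMIs in the 48 P60 cells, which allows up to 6.58 CPM by a floor of 3 UMIs. Sst had 6 UMIs in 5 cells (13.2 CPM), against 40338.5 CPM in Inhib_1. The summed Sst and Pvalb lists were at 377 and 246 CPM, each at position 5 of the 12 clusters. Above the mean of the other clusters were 2 of 5 and 1 of 5 of their genes. The Vip list was at 11 CPM, position 11, with 0 of 4. The 5 genes lowest in Inhib_8 relative to the other clusters were Vip, Sst, Tac2, Crhbp and Htr3a. The summed CGE list was at 140 CPM, position 10 of the 12 clusters, with Adarb2 at 41.7 CPM, Prox1 at 48.2 CPM and Nr2f2 at 37.3 CPM, each below the mean of the other clusters. Lhx6 was at 65.8 CPM (44.4 to 93.9) with UMIs in 13 cells, against 9.03 CPM in Inhib_7. The summed MGE list that holds Lhx6 was at 612 CPM, position 5 of the 12 clusters, against 689 CPM in Inhib_7. Of its 7 genes, 5 were above the mean of the other clusters and 4 above Inhib_7. Sox6 had 1 UMI and Nkx2-1 had 2. Nos1, the neuronal nitric oxide synthase, was at 125 CPM and Cort, the neuropeptide cortistatin, at 235 CPM.

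**Figure D2:**
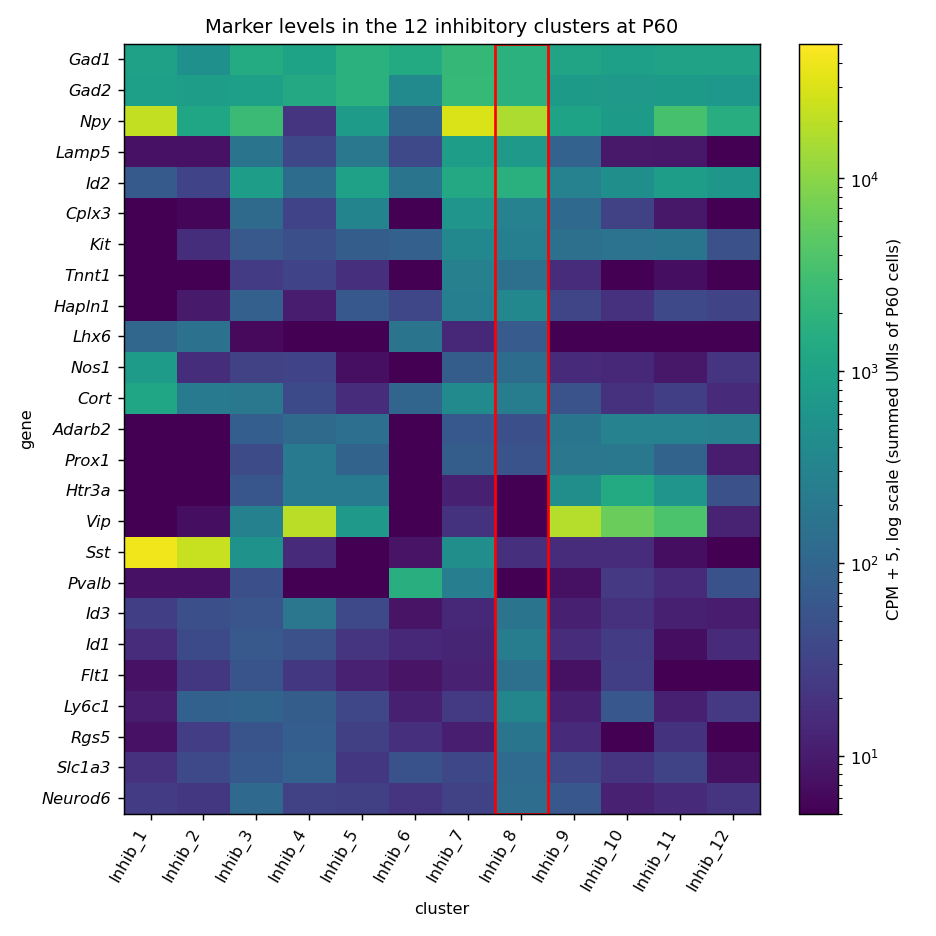
Levels (CPM + 5, colour on a log scale) of 25 marker genes (rows) in the summed P60 cells of the 12 inhibitory clusters (columns), with Inhib_8 outlined in red. Lamp5, Id2 and Tnnt1 are high in Inhib_7 and Inhib_8, Npy in these and in Inhib_1, Vip, Sst, Pvalb and Htr3a are at or near 0 in Inhib_8, and Id1, Flt1, Ly6c1 and Rgs5 are brighter in Inhib_8 than in the other 11 columns.

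The 2 given markers differed in how they separated the cluster. Tnnt1 was at 143 CPM (110 to 182) with UMIs in 24 of 48 P60 cells, lower than in Inhib_7 at 272 CPM and above the 10 remaining clusters. Per library, Tnnt1 was at 136 CPM in P60-11 and 186 CPM in P60-9, the 2 libraries with more than 10 cells. Id3 was at 167 CPM (131 to 209) with UMIs in 17 of 48 cells, against 9.03 CPM in Inhib_7 and 186 CPM in Inhib_4. After each cell was thinned to 2000 UMIs, 14.6% of Inhib_8 cells kept an Id3 UMI, against 2.55% in Inhib_7. Before thinning the shares were 35.4% and 6.12%, and 99.0% of endothelial cells had an Id3 UMI. Id3 had 34 UMIs (258 CPM) in P60-11 and 5 UMIs (51.8 CPM) in P60-9. At P21, Id3 was at 162 CPM with UMIs in 5 of 26 cells. The P21-2 cell of the authors' endothelial class held 60.7% of these 28 UMIs. Tnnt1 at P21 had UMIs in 12 of the 18 cells of P21-1 (183 CPM) and 0 in P21-2 and P21-3. A floor of 3 UMIs is 134 CPM in P21-2 and 207 CPM in P21-3, so a level like that of P21-1 is not excluded in P21-3.

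Many of the genes that lead Inhib_8 over the other inhibitory clusters are abundant in other cell classes. In order, 19 of the 20 leading genes were Gng11, Id1, Ly6c1, Hbb-b1, Hapln1, S100a13, Efcab6, Sepp1, Lamp5, Thrsp, Wif1, Itm2a, Mia1, Lmo7, Id3, S1pr1, Cacna2d1, Sema5a and Tnnt1. Of the 20, 14 were highest in Inhib_8 of the 12 clusters, which the choice by ratio to the other clusters favours. Of the 20, 12 were higher in endothelial cells or astrocytes than in Inhib_8. Among these 12, Lmo7 was so by little, at 100 CPM in endothelial cells against 96.5 CPM. The share of all genes that are higher in these classes was not computed. Id1, a bHLH inhibitor, was at 239 CPM in Inhib_8, 7.21% of its level in endothelial cells, and Ly6c1, a surface protein of endothelial cells, was at 338 CPM, 6.19% of that level. Flt1, a receptor of vascular endothelial growth factor, was at 147 CPM (5.59%) and Rgs5, a gene of pericytes, at 175 CPM (6.64%). Slc1a3, a glutamate transporter of astrocytes, was at 3.77% of its level in astrocytes. Pecam1 had 3 UMIs and Gfap 0. The summed lists of endothelial (217 CPM), mural (252 CPM), astrocyte (191 CPM) and excitatory genes (298 CPM) were each higher in Inhib_8 than in any other inhibitory cluster, with 15.2, 10.8, 46.3 and 76.3 CPM in Inhib_7. The microglial list, at 13.2 CPM, stood at position 8.

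These UMIs were unevenly spread over cells. At least 3 UMIs of the endothelial and mural lists were present in 9 of 48 Inhib_8 cells (18.8%, exact binomial interval 8.95% to 32.6%), against 0 to 8.89% of cells in the other 11 clusters and 1.02% in Inhib_7. For the excitatory list the count was 12 cells (25%, against 0 to 12.6%), for the astrocyte list 8 cells (16.7%, against 0 to 6.76%) and for the mature oligodendrocyte list 8 cells (16.7%, against 1.61% to 13.9%). No Inhib_8 cell reached 3 UMIs of the microglial list. At least 1 of these lists was reached by 29 of 48 cells (60.4%, 45.3% to 74.2%), against 4.84% to 28.1% in the other clusters. These 29 cells had a median of 11848 UMIs and the remaining 19 a median of 5989 UMIs, so depth moved with the count.

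The 9 cells with vascular UMIs came from 4 libraries and had a median of 15490 UMIs. They held 25.6% of the P60 UMIs of the cluster but 63 of its 76 Id3 UMIs (82.9%), with 94.5% of Id1, 96.1% of Ly6c1, 91.9% of Itm2a and 85% of Sepp1. Of the 20 leading genes, 8 had more than 50% of their UMIs in these 9 cells. For Hbb-b1, a haemoglobin gene, 1 cell of P60-11 held 1646 of 1685 UMIs. By contrast they held 15.4% of Tnnt1, 13.9% of Hapln1 and 25.7% of Lamp5, in step with or below their share of all UMIs. Without the cells that reached 3 UMIs of another class, in every cluster, 19 Inhib_8 cells were left, Id3 fell to 25.1 CPM (3 UMIs, 5.17 to 73.3), Id1 to 16.7 CPM and Ly6c1 to 16.7 CPM, and 9 of the 20 leading genes were highest in Inhib_8. Among these 9, S100a13 and S1pr1 rested on 1 UMI each (8.36 CPM, 0.212 to 46.6). In those 19 cells Hapln1 was at 627 CPM, Lamp5 at 1011 CPM, Id2 at 2917 CPM and Tnnt1 at 142 CPM. Gng11, a G protein subunit, was at 142 CPM in 2 cells. The removal also changed the mix of cells with and without an Lhx6 UMI, which differ in Id2 and Hapln1 as described below. Of the 48 cells, 13 had an Lhx6 UMI and held 25.2% of the UMIs. Among the 19 left, 8 such cells held 15.3% of the P60 UMIs of the cluster and the 11 others 10.9%. The part of this shift in these levels was not tested. Whether the UMIs of other classes came from the neurons themselves, from free RNA or from a second cell in the droplet was not tested. The methods describe an upper limit on genes per cell against doublets, but cells above it are present in the deposited table, 6 of the 48 P60 Inhib_8 cells among them. Of these 6, 3 are among the 9 cells with vascular UMIs, with 6204, 5219 and 4821 genes. No doublet caller was run here.

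**Figure D3:**
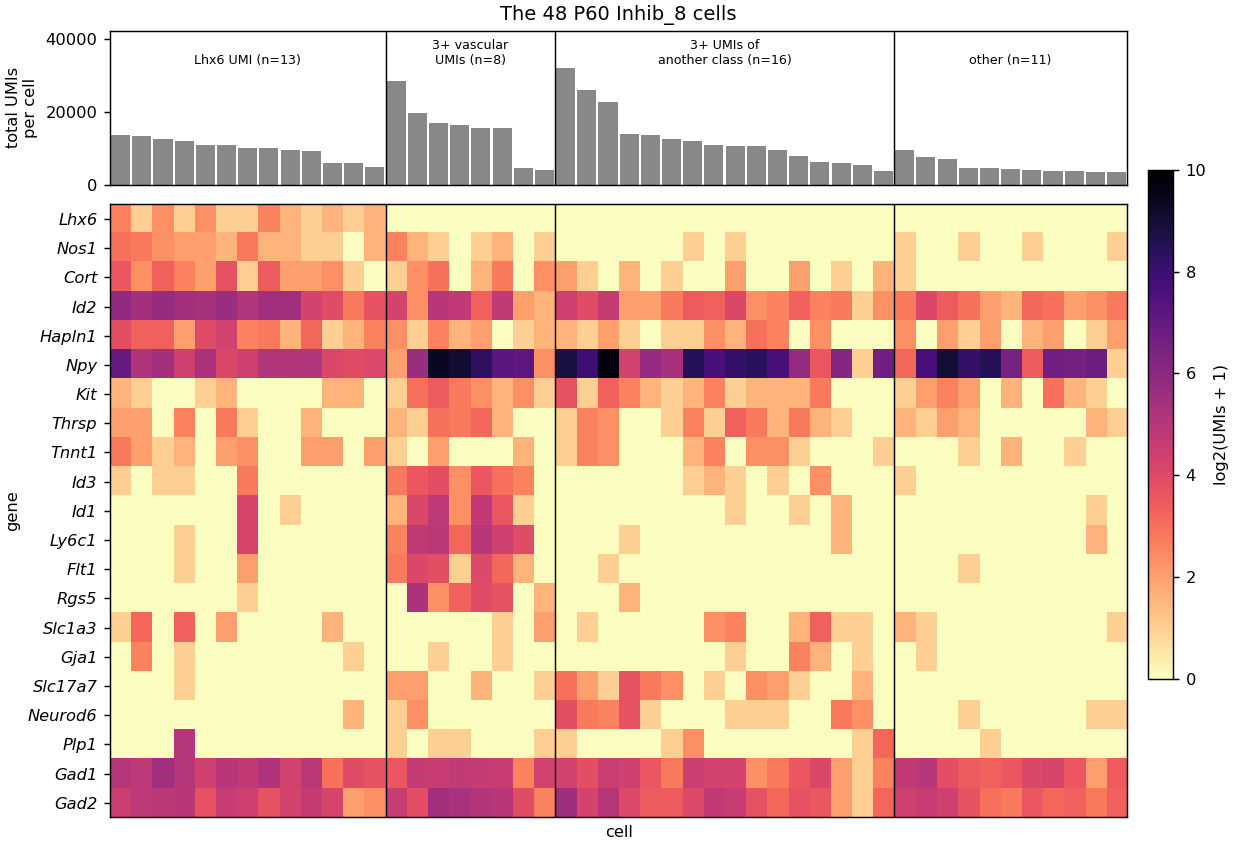
UMIs per cell (upper bars) and log2(UMIs + 1) of 21 genes (colour) in the 48 P60 Inhib_8 cells (columns), ordered as 13 cells with an Lhx6 UMI, 8 further cells with 3 or more endothelial or mural UMIs, 16 further cells with 3 or more UMIs of another class, and 11 remaining cells. Id3, Id1, Ly6c1 and Flt1 concentrate in the second block, and Nos1, Cort and high Id2 with low Npy in the first.

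Within Inhib_8, cells with and without an Lhx6 UMI differed in several further genes. This division was chosen after the values were seen and is a description. Lhx6 was detected in 27.1% of Inhib_8 cells (13 of 48, exact binomial interval 15.3% to 41.8%), in 4.59% of Inhib_7 cells, in 41.7% to 71.4% of cells of Inhib_1, Inhib_2 and Inhib_6, and in 0.741% or fewer of the cells of the other 7 clusters. The 13 cells came from 7 libraries and had a median of 10016 UMIs, against 9390 in the 35 cells without. Id2 was at 3964 CPM (3608 to 4346) in cells with Lhx6 and 958 CPM (857 to 1068) in cells without, and Npy, in the opposite order, at 3799 CPM (3450 to 4173) and 20061 CPM (19588 to 20541). Nos1 was at 340 CPM against 52.7 CPM, Cort at 575 CPM against 120 CPM, and Hapln1, a link protein of the extracellular matrix, at 836 CPM against 202 CPM. Kit was at 87.1 CPM against 319 CPM, Mia1 at 8.71 CPM against 132 CPM and Cck, a neuropeptide, at 227 CPM against 1002 CPM. Excitatory markers moved with the division, with Slc17a7 at 8.71 CPM against 155 CPM and Neurod6 at 17.4 CPM against 170 CPM. Among the 19 cells with under 3 UMIs of every other class, 8 with Lhx6 and 11 without, Cck was at 244 CPM against 461 CPM, Id2 at 3971 CPM against 1443 CPM, Npy at 4745 CPM against 35503 CPM, Hapln1 at 788 CPM against 401 CPM and Cort at 631 CPM against 20 CPM. Lamp5 and Tnnt1 were present in both, at 889 and 647 CPM and at 244 and 108 CPM. Of the 13 cells, 12 had a Nos1 UMI and 12 a Cort UMI, against 12 and 15 of the 35 cells without Lhx6. Adarb2 was detected in 4 of the 13 and 12 of the 35, and Prox1 in 3 and 13.

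At P21, likewise as a description, the order was the same for most of these genes. In the 8 cells with Lhx6 (7 of them in P21-1) Id2 was at 2409 CPM and Npy at 2674 CPM, and in the 18 cells without at 772 and 28416 CPM. Nos1 was at 341 against 49.8 CPM, Hapln1 at 1992 against 622 CPM and Kit at 19 against 465 CPM. Cck, at 2314 against 1651 CPM, was in the opposite order to that at P60. Over the 8 libraries of either age with both kinds of cell, Id2 and Hapln1 were higher in the cells with Lhx6 in 8 of 8. Nos1 was so in 7 and Cort in 6, with 1 library in the opposite order for Cort. Npy and Kit were lower in 8 of 8. P21-1 had 7 cells with Lhx6 and each other library 1 to 3, so most of these orders rest on few cells. In P60-12, with 1 such cell, Id2 was at 1071 against 1016 CPM. Only 1 of the 13 P60 cells also had 3 or more vascular UMIs, and 8 of them had under 3 UMIs of every other class. The 18 P60 cells of Inhib_7 with Lhx6 had lower Id2 (183 CPM), Hapln1 (47 CPM) and Lamp5 (115 CPM) than the P60 Inhib_8 cells with Lhx6. Their Cort was higher, at 1306 CPM. Npy, Nos1 and Kit of these Inhib_7 cells are not given here, so a separate profile was not shown.

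**Figure D4:**
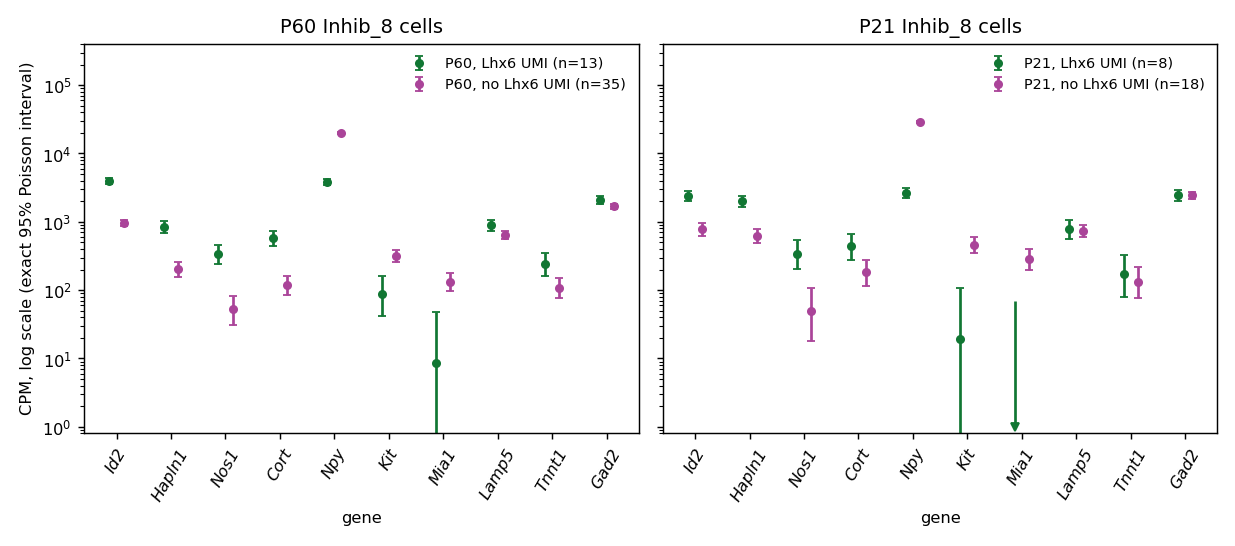
CPM (log axis) with exact 95% Poisson intervals, which cover counting error only, of 10 genes in Inhib_8 cells with (green) and without (purple) an Lhx6 UMI at P60 (left, 13 and 35 cells) and P21 (right, 8 and 18 cells). The green triangle marks a gene with 0 UMIs and its upper limit. Id2, Hapln1 and Nos1 lie higher, and Npy and Kit lower, in cells with Lhx6 at both ages, while Lamp5 and Gad2 lie close together.

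Functional gene groups in Inhib_8 were read against the other clusters in the same way, beside 56.6% of the 8616 genes above the mean of the other clusters and 16.1% highest in Inhib_8. These shares count genes whose level and mean together exceed 20 CPM. The group counts take every listed gene, so they are not strictly comparable with these shares. Bmpr1b, Hes5, Smad6 and Egr4, counted as above the mean, had 1 UMI each. Of 17 genes of the bHLH inhibitor and BMP pathway group, 16 were above the mean of the other clusters and 5 were highest in Inhib_8, with a summed level of 2315 CPM, most of it Id2. Bmpr1a, a BMP receptor, was at 21.9 CPM, and Smad4, a transducer of the signal, at 26.3 CPM. Smad1, at 24.1 CPM, was the gene below the mean. In the perineuronal net group, 6 of 7 genes were above the mean, led by Hapln1 (362 CPM), while Acan, the main proteoglycan of such nets, had 0 UMIs. Vcan was at 41.7 CPM against 13.7 CPM in Inhib_7. Of 18 immediate early and dissociation genes, 16 were above the mean and 10 were highest in Inhib_8, with Fos at 695 CPM (259 in Inhib_7), Junb at 169 CPM (37.6) and Dusp1 at 107 CPM (35). Fos and Junb moved with the vascular UMIs: Fos was at 1707 CPM in the 9 cells with them and 348 CPM in the other 39, and Junb at 412 and 85.4 CPM. In the 19 cells with under 3 UMIs of every other class Fos was at 401 CPM and Junb at 83.6 CPM. Of 12 listed troponin and sarcomere genes, Tnnt1, Tnnt2, Tpm1 and Myl4 were above the mean, Tnnt3, Tnni1, Tnni2, Tnni3, Tnnc2 and Actc1 had 0 UMIs, and Myl4 (132 CPM) had its UMIs in 9 cells. Among GABA-A receptor subunits 9 of 12 were above the mean, with Gabrb2 at 515 CPM and Gabrd, the subunit of extrasynaptic receptors, at 143 CPM. Of 18 clock and output genes 14 were above the mean, with Hlf at 164 CPM and Rora at 235 CPM. The summed calcium buffers, at 772 CPM, were the lowest of the 12 clusters, but close to Inhib_7 at 783 CPM. Pnoc, the precursor of nociceptin, had UMIs in 48 of 48 cells (870 CPM). Heat shock genes, at 5806 CPM, were close to Inhib_7 at 5828 CPM. The summed groups were not recomputed without the cells with UMIs of other classes.

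The age comparison asked which genes differ within Inhib_8 between adolescence and adulthood. Units were the 3 P21 libraries (18, 4 and 4 cells) and 3 saline P60 units, namely P60-11 (11 cells), P60-12 (9 cells) and the sum of P60-5 and P60-7 (5 cells); saline maintenance had no cell. Of 1255 genes tested with edgeR, 5 were called (0.398%) at an adjusted p below 0.05 and more than 1.5-fold, 4 higher (0.319%) and 1 lower (0.0797%) at P21. Units did not overlap for 17% of genes, and 11.8% had an unadjusted p below 0.05. The P60 saline mice had also gone through self-administration, so age and that procedure cannot be told apart. In the sentences that follow, values run over the P60 units 5 + 7, 11 and 12 and then over P21-1, P21-2 and P21-3.

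Fgf13 (chromosome X, 56315322 to 56821248, minus strand, NCBIM37), a fibroblast growth factor homologue that stays in the cell and acts on sodium channels and microtubules, was at 181, 311 and 163 CPM and then at 895, 1293 and 1033 CPM. Every P21 unit lay well above every P60 unit, with a log2 difference of 2.18 (SE 0.285, adjusted p = 0.00074). Hapln1 (chromosome 13, 89680241 to 89751437, plus strand) was at 327, 402 and 177 CPM and then at 1064, 624 and 1446 CPM, a log2 difference of 1.75 (SE 0.314, adjusted p = 0.0245). It was the 1 tested gene of the 7 of the perineuronal net group. Cyc1 (chromosome 15, 76173953 to 76176364, plus strand), cytochrome c1 of respiratory complex III, was at 36.3, 121 and 150 CPM and then at 528, 401 and 275 CPM (log2 2.07, SE 0.417, adjusted p = 0.0339). Gadd45g (chromosome 13, 51942047 to 51943837, plus strand), a stress-induced growth arrest gene, was at 72.6, 98.5 and 150 CPM and then at 389, 312 and 482 CPM (log2 1.87, SE 0.383, adjusted p = 0.0339). Chn1 (chromosome 2, 73448717 to 73613403, minus strand), a GTPase-activating protein for Rac, was the gene lower at P21, with 381, 477 and 476 CPM and then 139, 44.6 and 68.9 CPM (log2 -1.91, SE 0.378, adjusted p = 0.0339). For these 5 genes the groups did not overlap. Markers of other classes also differed between the ages in Inhib_8. The summed excitatory list was at 298 CPM over all P60 cells and 34.6 CPM at P21. At least 3 excitatory UMIs were present in 12 of 48 and 0 of 26 cells. The mature oligodendrocyte list was at 228 and 5876 CPM, with at least 3 UMIs in 8 of 48 and 5 of 26 cells. Its P21 level rested mostly on a P21-1 cell with 667 UMIs of that list and the cell of the oligodendrocyte class with 325. The excitatory marker Neurod6 was at 96.6, 90.9 and 354 CPM in P60-7, P60-11 and P60-12, with 0 UMIs in P60-5, and at 7.34, 0 and 0 CPM in the P21 libraries. Their part in the calls was not tested.

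Chn1 had 21, 63 and 35 UMIs in the P60 units and 19, 1 and 1 in the P21 units, and Fgf13 had 10, 41 and 12 and then 122, 29 and 15. The calls rested on few units: without P60-5 and P60-7 there were 9, without P60-11 there were 2, without P21-1 there were 16, without P21-2 there were 12 and without P21-3 there was 1. Fgf13 was called under 13 of 14 alternatives, Hapln1 under 10, Chn1 under 9, and Cyc1 and Gadd45g under 8. These counts include the alternative without a fold cutoff, which reuses the main fit, so that every called gene stays called in it. Without the 3 P21 cells of another broad class 17 genes were called, and these held all 5. Without cells with 3 or more UMIs of another class, 1 P60 unit of 5 cells was left, which is assumed to vary like the P21 units. That fit called 14 other genes and gave log2 differences of 1.57 for Fgf13, 0.49 for Hapln1, 1.67 for Cyc1, 2.09 for Gadd45g and -2.52 for Chn1, with edgeR adjusted p from 0.196 to 0.88.

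Of the genes described above as high in the cluster, Hapln1 was called and Npy, Id2 and Id3 were not. The log2 difference of Npy was 0.10 (SE 0.728, edgeR adjusted p = 0.995) and that of Id2 -0.59 (SE 0.328, edgeR adjusted p = 0.547). Id3 differed by 0.36 (SE 1.25, edgeR adjusted p = 0.969), with 758 CPM in P21-2 and 51.4 CPM in P21-1, a spread within P21 wider than the difference. All 17 Id3 UMIs of P21-2 were in the cell that the authors classed as endothelial. Tnnt1 and Lhx6 did not pass the filter on low counts. Of the 5 tested genes of the neurogliaform list 0 were called, with a median log2 difference of 0.04, against 0.02 over the 1255 genes. Of 8 tested immature neuron genes and 8 tested mature neuron genes 0 were called, with medians of 0.35 and -0.36.

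**Figure D5:**
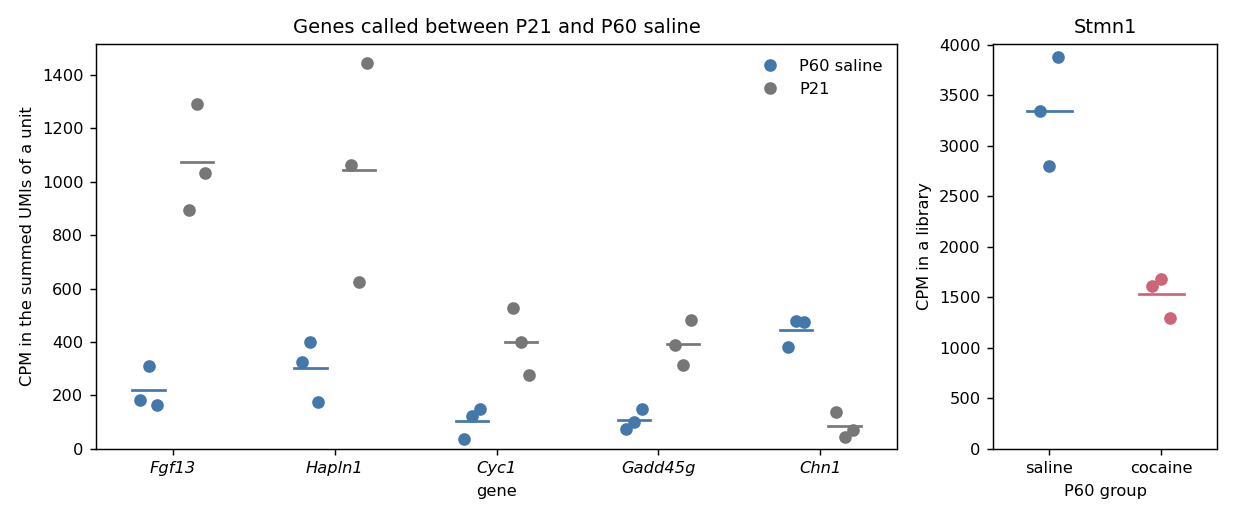
CPM in each unit (points) with group means (bars) for the 5 genes called between P21 and P60 saline (left, 3 units a group) and for Stmn1 in saline and cocaine P60 libraries (right, 3 libraries a group). For each of the 6 genes the points of the 2 groups do not overlap.

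Whether age differences in Inhib_8 differed from those in Inhib_7, the other Tnnt1 cluster, was asked by the interaction of age and cluster in the same units, with the unit as a block. Of 3143 genes, 3 were called (0.0955%), 2 with a higher difference in Inhib_8 (0.0636%) and 1 with a lower one (0.0318%). Units did not overlap for 10.9% of genes and 4.96% had an unadjusted p below 0.05. Itm2c (chromosome 1, 87790856 to 87805250, plus strand), an integral membrane protein related to BRI2, was at 635, 614 and 1184 CPM in P60 and 308, 223 and 413 CPM in P21 Inhib_8 units, and at 420, 541 and 578 CPM and then 425, 664 and 443 CPM in Inhib_7. Its P21 minus P60 difference in Inhib_8 less that in Inhib_7 was -1.25 on the log2 scale (SE 0.299, edgeR adjusted p = 0.0475). Itm2c was called under 4 of 13 alternatives, counting the alternative without a fold cutoff, which keeps every call. The 2 other genes, named after their values were seen because their units overlap, rest on few cells. Mbp, a myelin protein of oligodendrocytes, had 158 of its 161 P21 UMIs in P21-1 and 147 of them in 2 cells, 98 in a cell of the Inhibitory class and 49 in the cell of the oligodendrocyte class (log2 3.20, adjusted p = 2.9e-06). Epb4.1l3, a membrane skeleton protein, had 28 P21 UMIs, 16 of them in 2 cells (log2 3.84, adjusted p = 0.0216). Without P60-5 and P60-7 there was 1 call and without P21-2 there were 6. The 5 genes called for age within Inhib_8, a comparison on the same Inhib_8 units, were not called here, so their difference was not shown to be larger in Inhib_8 than in Inhib_7.

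Cocaine and saline were compared in the 6 P60 libraries with at least 3 Inhib_8 cells, all of withdrawal (saline P60-7, P60-11 and P60-12, cocaine P60-8, P60-9 and P60-10). Of 1240 genes 1 was called (0.0806%), and it was lower in cocaine. Libraries did not overlap for 8.87% of genes and 4.27% had an unadjusted p below 0.05. Stmn1 (chromosome 4, 134024235 to 134029758, plus strand), stathmin, which destabilises microtubules, was at 3343, 2804 and 3878 CPM in saline and at 1616, 1677 and 1294 CPM in cocaine libraries. The lowest saline library lay above the highest cocaine library, with a log2 difference of -1.10 (SE 0.194, edgeR adjusted p = 0.00735). In P60-11, 1 cell held 175 of the 370 UMIs, and without it that library was at 1797 CPM, close to the highest cocaine library. In the libraries with too few cells for the test, saline P60-5 (1 cell, 1 UMI) was at 296 CPM, and cocaine P60-4 and P60-6 (2 cells and 1 cell) at 1560 and 2137 CPM. Stmn1 was 1 of 7 tested immature neuron genes, of which the other 6 were not called, and the median of the 7 was -0.48 against 0.00197 over all genes tested. Without cells with 3 or more UMIs of another class, which left 1 saline library with 3 cells against 2 cocaine libraries, its log2 difference was 0.13 (edgeR adjusted p = 0.953), and without P60-10 edgeR called 0 genes, with 80 at an unadjusted p below 0.05. Without P60-8 or without P60-12 there were 2 calls. Id3 (log2 -0.45, SE 0.75, edgeR adjusted p = 0.995), Tnnt1 (0.29, SE 0.491) and Npy (-0.13, SE 0.585) were not called.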

How the data were processed

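Single cells of the PFC were captured on the 10x Chromium platform. The authors aligned reads to mm9 (NCBIM37), counted UMIs with Cell Ranger and clustered cells with Seurat 2.1.0. The deposited counts are raw UMI counts for 26145 genes without normalization, and the deposited cell table gives class, cluster and the fraction of mitochondrial UMIs. The authors' classes and clusters were used as given.

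Counts of the 15 libraries were read in Python 3.11.15 (pandas 2.3.3, numpy 2.4.6, scipy 1.17.1). CPM exclude 13 mitochondrial genes and 143 genes of ribosomal proteins. Identifiers and positions are from the NCBIM37 annotation. UMIs were summed over cells. For the age comparison, P60 libraries with under 10 cells were summed within treatment and time point, while P21 libraries entered alone whatever their size. Units with under 3 cells were left out. Genes were tested in R 4.3.3 with edgeR 4.0.16 (quasi-likelihood, filterByExpr, TMM, robust, Benjamini-Hochberg) and called at an adjusted p below 0.05 and over 1.5-fold. The SE of a log2 difference is its absolute value divided by the square root of the edgeR F statistic. It is approximate and can be too small where the difference is near 0. Libraries of one group are separate pools of mice at P60. P-values at P21 may measure technical spread, since mice may be shared. The tests were also run on simulated counts of units with a fixed dispersion. That setting has no single cells that hold much of a gene's UMIs, so it does not check calls that rest on few cells.

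Members and gene lists were chosen with earlier results of these data known. The genes named were those of the marker and functional lists, the 20 highest and 5 lowest genes by the ratio (pseudocount 5 CPM) of Inhib_8 to the mean of the other 11 clusters (at least 20 UMIs and 25% of cells, or a mean of 50 CPM for the lowest), and called genes whose units do not overlap, up to 10 a direction for age and 5 for the other tests. Other genes are marked. Some genes that this rule names are not reported here. Alternatives were DESeq2 1.42.0 and its size factors in edgeR, testing without the low-count filter, no fold cutoff, other sets of libraries and cells, and leaving out each unit. The removals of cells with another class or with 3 or more UMIs of another class, and leaving out libraries other than P60-9 for levels, were added after seeing the data. Intervals cover counting error only.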

Additional observations from a re-analysis of the deposited data

Results flagged for a closer look

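Among the 4 libraries of maintenance, P60-4 met the criterion of a gap test for small groups, with 4.17% of inhibitory neurons in Inhib_8 (2 of 48 cells) against 0 in the other 3. With the others at 0, any library with a cell would meet that criterion, and the exact 95% binomial intervals of the counts of 0 reach 10.3%, 17.6% and 12.3%, so P60-4 was not shown to differ. Chance flags about 1 in 20 groups tested, and 5 groups were tested. The age difference was unlike that in Inhib_7 for Mbp (log2 3.20 between the clusters), for Epb4.1l3 (log2 3.84) and for Itm2c (log2 -1.25), by the edgeR interaction of age and cluster. Mbp had 158 P21 UMIs in P21-1 against 1 in P21-2 and 2 in P21-3, with 98 in a cell of the authors' Inhibitory class and 49 in the cell of their oligodendrocyte class. Epb4.1l3 had 24, 4 and 0 UMIs in the P21 Inhib_8 units. Without the cells of another broad class the differences were 2.86, 3.97 and -1.21. That removal kept the cell with 98 Mbp UMIs, which also held 667 UMIs of the mature oligodendrocyte list.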

How the results depend on the processing

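No share of cells reached significance under any alternative (P21 against saline, exact permutation p of 0.5 to 0.963; cocaine against saline, 0.417 to 1). Leaving out each library moved the age difference between -1.63 and 0.933 percentage points and the cocaine difference between -0.353 and 0.897. With all 12 P60 libraries the age difference was -0.0698, and as a share of all neurons the cocaine difference was -0.0133. For genes called with age (5), DESeq2 gave 2, no filter on low counts 48, all 12 P60 libraries 11, removal of cells of another broad class 17 and removal of cells with 3 or more UMIs of another class 14 (1 P60 unit left, so not comparable), and leaving out each unit gave 1 to 16. For cocaine (1), no filter gave 2, a minimum of 1 cell 0 (edgeR, 28 at an unadjusted p below 0.05), a minimum of 5 cells 16 (1 cocaine library left) and removal of cells with UMIs of another class 2 (1 saline library left), and leaving out each library gave 0 to 2. For the interaction (3), DESeq2 gave 0 (71 at an unadjusted p below 0.05), removal of cells of another class 11 and of cells with UMIs of another class 1 (1 P60 unit left), and leaving out each unit 1 to 6. The cause of these shifts was not tested, beyond fewer units or cells where the alternative removes them. Leading genes highest in Inhib_8 numbered 14, or 9 without cells with UMIs of another class, 15 without P60-9, and 12 to 14 leaving out each other library. Of 32 gene levels, 24 left their Poisson interval under at least 1 of 12 alternatives.

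The sign also changed for Stmn1 with cocaine, to 0.13 without cells with UMIs of another class. It changed for 2 genes that were not called. Npy with age was -0.0381 with no filter, and between -0.30 and 0.43 leaving out each unit. Npy with cocaine was 0.14 with a minimum of 1 cell, 0.50 with a minimum of 5 cells, 1.45 without cells with UMIs of another class, and between -0.55 and 0.13 leaving out each library. Id3 with age was -1.31 without cells of another class and between -1.22 and 1.46 leaving out each unit, and with cocaine between -0.89 and 0.18. No paired analysis was possible between ages or treatments because replicate numbers within groups follow accession order and tie to no animal or batch, and the interaction has the unit as a block. With 3 units a group and 4 cells in some, genes with few UMIs did not pass the low-count filter of the main tests.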
